A study of Arabidopsis thaliana with 10 samples.

Results

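Seedlings of the Arabidopsis line LFYasEMF1/ult1-3, called the double mutant here, were compared with wild type (WT) seedlings hybridised on the same microarray slides. The comparison used 4 of the series' 10 arrays, chosen from the titles and the slide barcodes: the double mutant at 7 and 15 days and replicate 2 of WT at 7 and 15 days. The 7-day arrays shared slide 2 and the 15-day arrays shared slide 3. Both slides also carried ult1-3 at the same age, and these 2 arrays entered the fit. WT replicate 1 and LFYasEMF1 lay on slide 1 and were used only for values set beside the comparison. Each array held labelled RNA of whole seedlings, raised on sucrose plates in short days, and WT is given without an accession name.

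The double mutant carries the LFYasEMF1 transgene and the ult1-3 allele. As the line is known, the transgene transcribes EMF1 in antisense from the promoter of LFY (LEAFY), so it acts where that promoter is active. The labels do not say how many transgenic clones were used, nor whether the arrays of a genotype came from separate cultures. There is 1 double mutant array at each age, the p-values treat the ages as replicates, and they reflect just the variation among these arrays, which can be technical.

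EMF1 (EMBRYONIC FLOWER 1) works with the Polycomb proteins, which keep genes silent through a mark on histone H3, and in seedlings it is known for holding the floral organ identity genes off. ULT1 (ULTRAPETALA 1) is known as a trithorax group factor, a class of proteins that oppose Polycomb silencing, and it promotes expression of AG in the floral meristem. The floral organ identity genes are mostly MADS-box transcription factors that act in combinations to specify sepals, petals, stamens and carpels.

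Levels are given as log2 of the signal relative to the 75th percentile of the array, a scale on which differences between arrays are log2 fold changes. The level of 1 gene cannot be set against that of another, since each rests on its own probe. A change is the mean of the differences at the 2 ages with its standard error from limma (n = 2 arrays against 2), and a gene was called when its Benjamini-Hochberg adjusted p was under 0.05. Arrays had 71.7% to 80.1% of spots well above background. The median absolute log2 difference between the double mutant and WT was 0.53 at 7 days and 0.46 at 15 days, against 0.57 between the 2 WT replicates at either age, which lie on different slides. Between the double mutant and ult1-3 of the same slides it was 0.30 and 0.18, and between ult1-3 and WT 0.30 and 0.40. In whole seedlings, fewer cells of a type and less RNA per cell cannot be told apart.

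The seedling label was checked against tissue markers. Leaf markers were well above background on all 4 arrays, 4 of 4, and root markers on 14 or 15 of 15. Of 3 markers of maturing seed that were measured (CRA1, CRU3 and OLEO1), 0 were well above background in WT at either age or in the double mutant at 15 days, and 3 of 3 were in the double mutant at 7 days. Of 2 measured markers of stamen and pollen, 1 was above background on the 7-day double mutant array and 0 on the other 3 arrays.

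The genes altered in the line were checked first. ULT1 (AT4G28190, chromosome 4) stood at −0.20 and −0.16 in WT at 7 and 15 days, at −2.33 and −2.76 in ult1-3 and at −6.45 and −5.81 in the double mutant, where the 7-day value was at background. The 3 genotypes did not overlap, and the double mutant was lowest at both ages. ULT1 fell by 5.95 ± 0.31 against WT (62.0-fold, adjusted p = 0.00894 by limma), and its other probe gave −5.81. Against ult1-3 of the same slides ULT1 fell too, by a log2 change of −3.59 (adjusted p = 0.0461 by limma), although both lines carry the same allele. Where the probes lie relative to the lesion is not given.

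EMF1 (AT5G11530, chromosome 5) stood at −1.80 and −1.29 in WT and at −3.10 and −1.62 in the double mutant, a change of −0.81 ± 0.30 that did not pass (adjusted p = 0.175 by limma). The WT and double mutant groups overlapped, and it is not given whether the probe reads sense or antisense transcripts. In ult1-3 EMF1 stood at −2.55 and −1.73, and the double mutant differed from it by −0.22 (adjusted p = 0.924 by limma). LFYasEMF1 was higher than its own WT on slide 1, by 1.35 at 7 days and 1.06 at 15 days. LFY, the meristem identity gene whose promoter drives the transgene, cleared background on WT at 15 days alone, so no fold is given. ULT2, the ULT1 relative, stood at −7.31 and −9.0 in WT and at −7.40 and −5.28 in the double mutant, so the double mutant was higher at 15 days alone (adjusted p = 0.285 by limma).

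Over all genes tested, the double mutant had 52 rises and 71 falls, or 0.233% and 0.318% of 22353 (0.55% together). Each of them moved the same way at both ages, which the test favours because it uses the spread between ages. At an unadjusted p under 0.05 by limma there were 6125 genes, and 1527 when the double mutant was set against ult1-3. The fit has 2 residual degrees of freedom, and without the WT array of either age no gene was called by limma (4513 and 4781 genes at an unadjusted p under 0.05). Taking the ages singly, with no test, 1747 genes were at least 2-fold higher and 3478 lower at 7 days (7.82% and 15.6%), and 2126 higher and 1637 lower at 15 days (9.51% and 7.32%). At both ages 711 were 2-fold higher (3.18%) and 826 lower (3.7%), while 219 moved 2-fold in opposite directions.

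**Figure D1:**
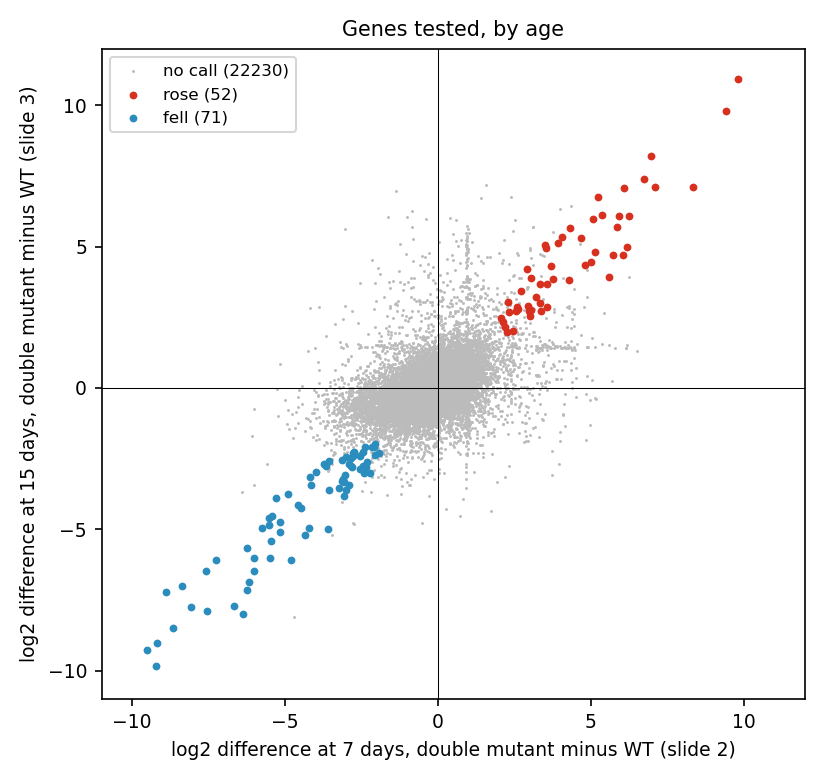
Each point is a gene tested, with its log2 difference between the double mutant and WT at 7 days on the x axis and at 15 days on the y axis. The 52 genes that rose (red) lie in the upper right and the 71 that fell (blue) in the lower left, where the differences at the 2 ages are of like size, since the test uses the spread between ages.

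Many of the calls lay between background and a clear signal. Of the 52 rises, 21 were at background on both WT arrays and well above it on both double mutant arrays, and 2 were well above it on none of the 4. Of the 71 falls, 40 were at background on both double mutant arrays and well above it on both WT arrays. Among all 22353 genes, 449 went from signal in WT to background in the double mutant and 33 the other way. Detection was unequal, with 76.1% and 80.1% of spots well above background in WT against 72.3% and 74.0% in the double mutant. The lowest signal well above background was −7.74 and −9.70 in WT against −7.34 and −7.16. A dim gene of equal level can thus count as signal in WT alone, so these counts do not measure silencing. Probes at background read lower on the WT arrays, with a median of −9.75 and −10.57 against −8.79 and −9.22 on the double mutant arrays, so a gene undetected everywhere reads as higher in the double mutant and no fold is given for such genes. Where 1 group was well above background on no array, the fold is a lower bound ("at least"), set with the lowest signal well above background on each array as the floor.

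Floral organ identity genes stood higher in the double mutant, with 1 of the 19 tested called, against 0.55% of all genes. Of the 20 on the list 19 were tested, 16 were higher and 3 lower, and 10 were at least 2-fold higher at both ages, against 3.18% of all genes. The list's median log2 change was 1.52, against 0.01 over all genes, with 1.12 at 7 days and 2.46 at 15 days. This list was chosen with earlier results of these data known.

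SEP2 (AT3G02310, chromosome 3), a MADS-box cofactor of the other organ identity proteins, stood at −8.71 and −7.38 in WT and at −3.36 and −1.27 in the double mutant. Both double mutant arrays lay far above both WT arrays, of which 1 was at background, so the fold rests in part on background. SEP2 rose by 5.73 ± 0.52 (53.1-fold, adjusted p = 0.0385 by limma). With a floor under dim signals it did not pass (5.24, adjusted p = 0.0644 by limma), and after normexp correction the change was 3.40. In ult1-3 it stood at −7.56 and −7.52, near WT and at background. Its relative SEP1 stood at −6.35 and −6.82 in WT and at −2.01 and −0.38 in the double mutant. This change of 5.39 ± 0.62 did not pass (adjusted p = 0.0594 by limma). The SEP1 groups did not overlap, which held with the double mutant higher for 20.7% of all genes.

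SEP3, of the same family, differed between ages. At 7 days it stood at −1.54 in WT and −1.42 in the double mutant, and at 15 days at −2.58 and 0.53. Its change of 1.62 ± 0.72 did not pass (adjusted p = 0.225 by limma). SEP4 was nearly level, with −1.82 and −1.08 in WT and −2.41 and −0.83 in the double mutant.

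The petal and stamen genes were PI and AP3, whose proteins act as a pair. PI stood at −4.11 and −3.13 in WT and at −1.21 and 0.38 in the double mutant (3.20 ± 0.39, adjusted p = 0.0624 by limma). AP3 was at background on both WT arrays and stood at −5.33 and −2.94 in the double mutant, at least 18.0-fold higher (4.22 ± 0.87, adjusted p = 0.0947 by limma). Both genes were higher on each double mutant array than on either WT array, as were 20.7% of all genes, and neither passed.

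Among the genes of the meristem and sepal, AP1 was at background in WT and stood at −5.35 and −3.57 in the double mutant, at least 13.3-fold higher (4.87 ± 0.62, adjusted p = 0.0649 by limma). CAL, the closest relative of AP1, was higher by 1.52 ± 0.44, while its other probe gave −0.38, so its probes disagree. FUL, which acts with both in the meristem and later in the fruit, was higher by 1.31 ± 0.25 with overlapping groups. UFO, an F-box protein that works with LFY, was higher by 1.02 ± 0.24.

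For the stamen and carpel gene AG, WT stood at −6.81 and −6.23, ult1-3 at −8.78 and −7.99 and the double mutant at −4.48 and −2.42. The double mutant was highest at both ages, and ult1-3 was at background on both arrays. The change against WT was 3.07 ± 0.42 (8.40-fold, adjusted p = 0.0715 by limma), and against ult1-3 AG rose at least 15.1-fold (adjusted p = 0.044 by limma). The other AG probe gave 1.67 against WT. STK, an ovule gene of the same clade, was at background in WT and at least 11-fold higher (4.39 ± 0.63, adjusted p = 0.0756 by limma). The fruit genes SHP1 and SHP2 differed by 0.00 and 1.23 at 7 days and by 2.46 and 3.61 at 15 days, and neither passed.

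The remaining members showed small values. AP2 and LUG, which hold AG off in the outer floral organs, were lower by a log2 change of −0.55 and −0.59. AGL6 had a value of 1.00, and SUP was at background on all 4 arrays.

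**Figure D2:**
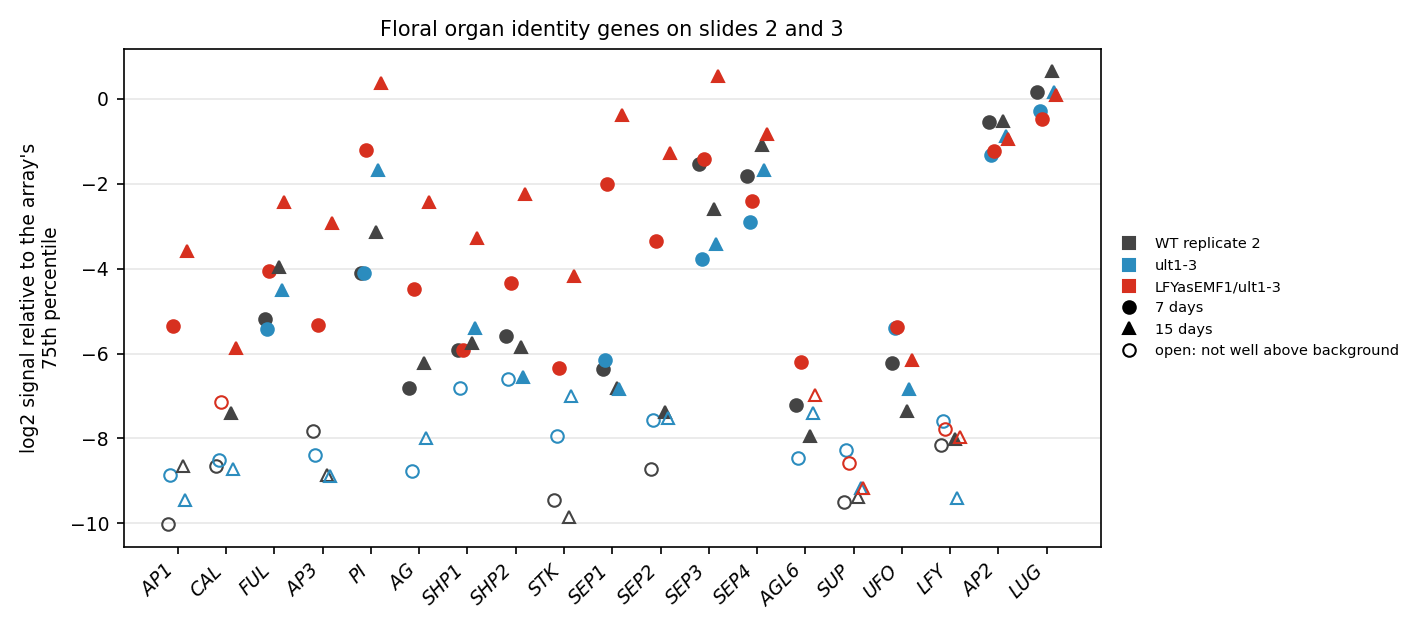
Log2 signal relative to the 75th percentile of the array (y axis) for the 19 floral organ identity genes tested (x axis), with WT in dark grey, ult1-3 in blue and the double mutant in red, circles for 7 days, triangles for 15 days and open symbols for probes not well above background. The red symbols of SEP1, SEP2, PI, AP1, AP3, AG and STK lie above the grey ones at both ages, and for most genes the red triangle is the highest symbol.

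LFYasEMF1 against WT of slide 1, a comparison that shares no array with this one, gave larger differences for SEP1, SEP2, AP3, PI and AG. SEP2 differed there by 9.34 at 7 days and 8.86 at 15 days, against 5.35 and 6.11 in the double mutant. SEP1 differed by 9.55 and 8.54 against 4.35 and 6.44, and AP3 by 8.95 and 9.09 against 2.51 and 5.93. For PI the values were 5.60 and 5.11 against 2.90 and 3.51, and for AG they were 6.66 and 5.22 against 2.33 and 3.81. UFO went the other way, with −0.97 and −1.06 in LFYasEMF1 against 0.85 and 1.18. There is 1 array of each line at each age and the lines lie on different slides, so this difference was not tested.

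Other called rises with a gene symbol that were clear of background on both double mutant arrays numbered 10 with SEP2. SWEET10 (AT5G50790), a sugar transporter gene, stood at −7.83 and −6.63 in WT and at −1.76 and −1.94 in the double mutant, and rose by 5.38 ± 0.38 (41.7-fold, adjusted p = 0.0205 by limma). The 7-day WT value was at background, so the fold rests in part on it. WT replicate 1, on slide 1, stood higher at −2.99 and −5.17, and on all 10 arrays without slide SWEET10 did not pass (3.81, adjusted p = 0.225 by limma). Of the 17 SWEET genes tested, a list chosen with earlier results known, it was the 1 called, against 0.55% of all genes. The list's median was 0.29. ACP5 (AT5G27200), an acyl carrier protein of fatty acid synthesis, stood at −5.16 and −7.47 in WT and at −1.62 and −2.52 in the double mutant, and rose by 4.25 ± 0.39 (19.0-fold). The other 4 acyl carrier protein genes tested had values of 0.49 to 0.65.

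AACT1 (AT5G61160), an acyltransferase gene, stood at −4.37 and −5.89 in WT and at −0.05 and −0.24 in the double mutant, and rose by 4.99 ± 0.46 (31.7-fold). WT replicate 1, on slide 1, stood higher at −3.95 and −1.91, and on all 10 arrays without slide AACT1 did not pass. AGL98 (AT5G39810), a MADS-box gene, rose at least 12-fold from background to −5.01 and −5.04. MSP2 rose at least 11.6-fold, from background to −5.51 and −4.87. MIF2, which encodes a mini zinc finger protein, stood at −5.32 and −5.53 in WT and at −2.75 and −2.80 in the double mutant, and rose 6.27-fold. For each of these genes ult1-3 lay near WT or nearer to WT than to the double mutant.

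In 3 rises the ult1-3 arrays moved too. ARI3 (AT3G27710), a ubiquitin ligase gene of the ARIADNE family, stood at −3.66 and −3.57 in the double mutant and at −3.63 and −3.82 in ult1-3, against −7.96 and −7.38 in WT, and rose by 4.05 ± 0.26, with the 7-day WT value at background. FBD1 rose at least 15.0-fold from background to −4.80 and −4.82, with ult1-3 at −6.74 and −6.15. M10, named for a late embryogenesis abundant protein, rose by 2.71 ± 0.22, with ult1-3 between WT and the double mutant at both ages. WT replicate 1 stood at −5.56 and −1.93 for M10, at 15 days above the double mutant (−3.43). On all 10 arrays without slide M10 did not pass. Among genes with no symbol, AT4G04402 and AT5G17090 had the largest rises, at least 412-fold and at least 662-fold, and LFYasEMF1 differed from its own WT by 9.45 and 9.97 for the former and by 8.06 and 8.96 for the latter.

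Among falls with a gene symbol, the largest were in PP2-A8, CSA1 and DAR4. PP2-A8 (AT5G45070), a phloem protein 2 lectin gene, stood at −1.49 and −1.52 in WT and at −1.93 and −1.58 in ult1-3, and was at background in the double mutant, at least 53.6-fold lower (adjusted p = 0.00404 by limma). Its neighbour PP2-A6 fell at least 16.6-fold, and these were the 2 of 12 PP2-A genes called, against 0.55% of all genes. The list was chosen with earlier results of these data known, so its share of calls is no test of the family. PP2-A7 was also at background in the double mutant (−2.50 ± 0.30, adjusted p = 0.0626 by limma). The other 9 ranged from −2.0 to 0.68.

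CSA1 (AT5G17880) and DAR4 (AT5G17890), neighbouring resistance genes of the nucleotide-binding leucine-rich repeat (NLR) family, fell together. CSA1 stood at −2.51 and −1.36 in WT and was at background in the double mutant, at least 39.7-fold lower. DAR4 stood at −1.12 and −0.29 in WT and at −8.38 and −6.38 in the double mutant, of which the former was at background, and fell by 6.68 ± 0.34 (its other probe gave −6.40). In LFYasEMF1 these genes differed from its WT by −0.33 and −0.44 and by −0.11 and −0.53, and ult1-3 lay near WT, at −2.64 and −2.0 for CSA1 and at −1.99 and −0.88 for DAR4. The other 11 NLR genes tested ranged from −1.59 to 0.48, and 2 of 13 were called, against 0.55% of all genes. The NLR list too was chosen with earlier results of these data known, so this share is no test of the family.

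MRD1 (AT1G53480) stood at 2.05 and 1.56 in WT, at −2.99 and −4.02 in ult1-3 and at −3.96 and −4.46 in the double mutant, and fell by 6.01 ± 0.24 (64.6-fold, adjusted p = 0.00555 by limma). Both lines with ult1-3 were low and close to each other, with a difference of −0.70 between them. WOX2, a homeobox gene of the early embryo, stood at −3.26 and −3.40 in WT and fell at least 15.1-fold to background. CYP712A2, a cytochrome P450 gene, fell at least 5.30-fold to background.

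ESM1 (AT3G14210), which steers the breakdown of glucosinolates away from nitriles, kept a clear signal in all arrays. It stood at 3.39 and 4.83 in WT, at 3.62 and 4.88 in ult1-3 and at 0.37 and 1.22 in the double mutant, and fell by 3.32 ± 0.24 (9.97-fold, adjusted p = 0.0225 by limma). In LFYasEMF1 it differed by −2.15 and −2.52. Other falls with clear signal in each double mutant array were CTC1, of the telomere cap, at −3.16 ± 0.20, SUV2, of the DNA damage response, at −2.80 ± 0.21, and the glycosyltransferase gene ARAD2 at −3.20 ± 0.32. On the 4 arrays of the comparison alone ARAD2 and SUV2 did not pass, and with the mean of its probes CTC1 did not. RGTA2, MBD3 and MES18 fell at least 2.48-fold, 2.16-fold and 2.87-fold to background. The largest falls without a symbol were AT4G07825 and AT4G07820, at least 188-fold and 276-fold, which are neighbours. The other probe of AT4G07825 gave −3.48.

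**Figure D3:**
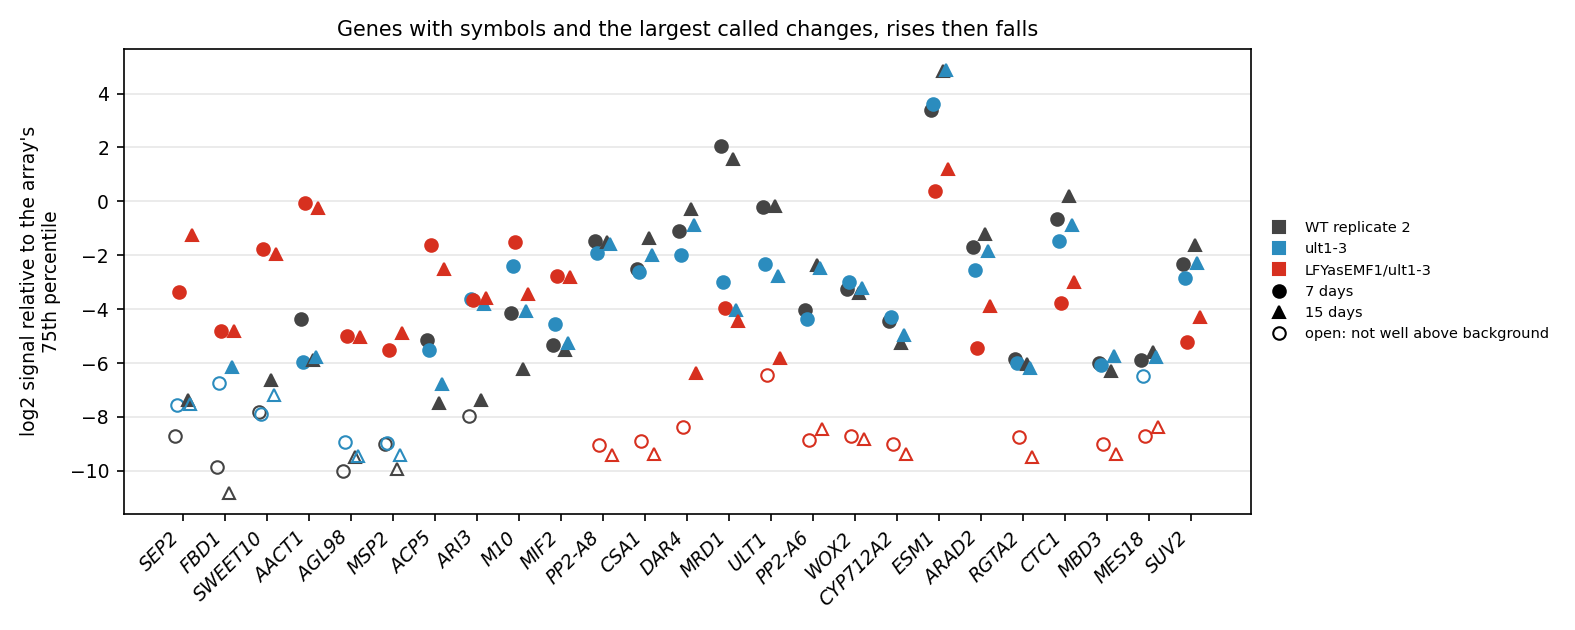
Log2 signal relative to the 75th percentile of the array (y axis) for the 10 rises and 15 largest falls with a symbol, with colours and symbols for genotype and age as in the key and open symbols for probes not well above background. Red symbols lie above grey for the rises and below grey for the falls at both ages; blue symbols lie with the red for ARI3 and near them for MRD1, and with the grey for SWEET10, CSA1 and PP2-A8.

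The falls were unevenly spread over the chromosomes. Chromosomes 1 to 5 held 6, 0, 9, 19 and 37 of the 71 falls and 7, 5, 10, 7 and 23 of the 52 rises. The genes tested on them numbered 5925, 3451, 4406, 3377 and 5194. By the locus numbers, which run along each chromosome, the numbers below 10000 on chromosome 4 held 18 falls among 615 genes tested (2.93%). Those from 40000 to 59999 on chromosome 5 held 31 among 1819 (1.70%). These stretches were picked after the calls were seen. Together they held 49 of the falls and 13 of the rises among 2434 genes.

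Pairs of called genes within 3 places of each other were counted along the chromosomes, and 10 of the pairs fell and 1 rose. No like count was made over all genes, so whether called genes lie closer together than others was not tested. The pairs included CSA1 and DAR4, PP2-A8 and PP2-A6, ESM1 and GLIP4 (−3.32 and −2.57), and MBD3 and TRM15 (−3.05 and −2.36). GLIP4 and TRM15 were named after their values were seen. ULT1 itself lies on chromosome 4, in a stretch of locus numbers (20000 to 29999) that held 1 fall, its own, among 907 genes.

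Most of these genes differed in LFYasEMF1 too, against its own WT on slide 1. Of the 71 falls, 51 (71.8%) were at least 2-fold lower there at both ages, against 2.41% of all genes. Of the 52 rises, 31 (59.6%) were at least 2-fold higher, against 3.27% of all genes. In the stretch of chromosome 4 the count was 15 of 18 falls, in that of chromosome 5 it was 24 of 31, and elsewhere it was 12 of 22. Among all genes tested in these stretches, 43 of 615 (6.99%) and 88 of 1819 (4.84%) were at least 2-fold lower in LFYasEMF1. The median change in ult1-3 against WT was −0.25 over the 71 falls and 1.27 over the 52 rises, with the WT arrays shared. Whether the lines differ from WT in their background genome was not tested.

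Set against ult1-3 of the same slides, the double mutant had 24 rises and 45 falls (0.309% of 22353 in all). That count was 0 when the 2 WT arrays were left out of the fit, with 1666 genes at an unadjusted p under 0.05 by limma. PP2-A8 fell at least 45-fold against ult1-3, CSA1 at least 30.5-fold and ESM1 by a log2 change of −3.46 (adjusted p = 0.00531, 0.0238 and 0.0292 by limma). SWEET10 rose at least 34.4-fold against ult1-3 (adjusted p = 0.0269 by limma), whereas SEP2, at least 28.1-fold higher, did not pass (adjusted p = 0.0632 by limma). MRD1, ARI3 and FBD1 did not pass there, with values of −0.70, 0.12 and 1.63.

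Genes of aliphatic glucosinolate synthesis, defence compounds of the cabbage family, were lower in all 13 of 13 tested, with 0 called by limma and a median of −1.23 (−1.52 at 7 days and −0.77 at 15 days). The regulator MYB28 stood at −0.86 and −0.30 in WT and at −4.04 and −2.19 in the double mutant (−2.53 ± 0.37, adjusted p = 0.077 by limma). CYP79F1, the enzyme that starts the synthesis, stood at −3.28 and 1.14 in WT and at −8.50 and 0.16 in the double mutant. MAM1, of chain elongation, stood at 0.61 and 3.36 in WT and at −2.58 and 2.01 in the double mutant. For each the gap was wider at 7 days, and ult1-3 lay near WT except for MYB28, which was between. Of the 16 genes of indole glucosinolate synthesis and glucosinolate breakdown, ESM1 was the 1 called, against 0.55% of all genes. The myrosinase gene TGG2 stood at −0.44 and 0.81 in WT, at −3.64 and −0.29 in ult1-3 and at −6.02 and −1.87 in the double mutant (−4.14 ± 0.72, adjusted p = 0.0899 by limma), so ult1-3 lay between.

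On the 15-day arrays, 8 of 21 salicylic acid genes and 12 of 24 jasmonate and ethylene genes were at least 2-fold higher in the double mutant, against 9.51% of all genes, and 0 of either list were called. The NLR list differed, with 6 of 13 genes at least 2-fold lower at that age (7.32% of all genes), CSA1 and DAR4 among them. PR1, the marker of salicylic acid response, stood at −7.14 and −8.50 in WT and at −8.78 and −2.46 in the double mutant. PR4 stood at 2.05 and 1.3 in WT and at 2.44 and 5.10 in the double mutant. THI2.1, a thionin gene induced by jasmonate, was at background in WT and stood at −5.95 and −3.24 in the double mutant, at least 16.7-fold higher (adjusted p = 0.0899 by limma). WRKY70, SARD1 and the senescence marker SAG13 differed from WT by 3.22, 2.97 and 4.34 at 15 days, and by −0.89, 1.24 and −0.58 at 7 days. The 21 salicylic acid genes had a median of −0.15 on the 7-day arrays and 0.51 on the 15-day arrays, and over both it was 0.37 but −0.0033 in a fit of all 10 arrays. The 24 genes of jasmonate and ethylene had −0.20 and 0.88.

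On the 7-day arrays, 11 of 19 seed maturation genes were at least 2-fold higher in the double mutant, against 7.82% of all genes. OLEO1, an oil body protein, stood at −8.98 and −10.61 in WT and at −2.45 and −9.29 in the double mutant, and OLEO2 at −6.82 and −7.28 in WT and −1.95 and −6.86 in the double mutant. The storage protein genes SESA3 and CRU3 stood at −3.97 and −4.99 on that array and at background on the other 3. Medians over the list were 1.68 (7 days) and 0.54 (15 days), 16 of 19 genes were higher and 0 were called. The regulators LEC1, LEC2, FUS3 and ABI3, which start seed maturation, differed by −0.04, 0.03, 0.05 and −0.06 at 7 days, with LEC1 and FUS3 at background in the double mutant.

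**Figure D4:**
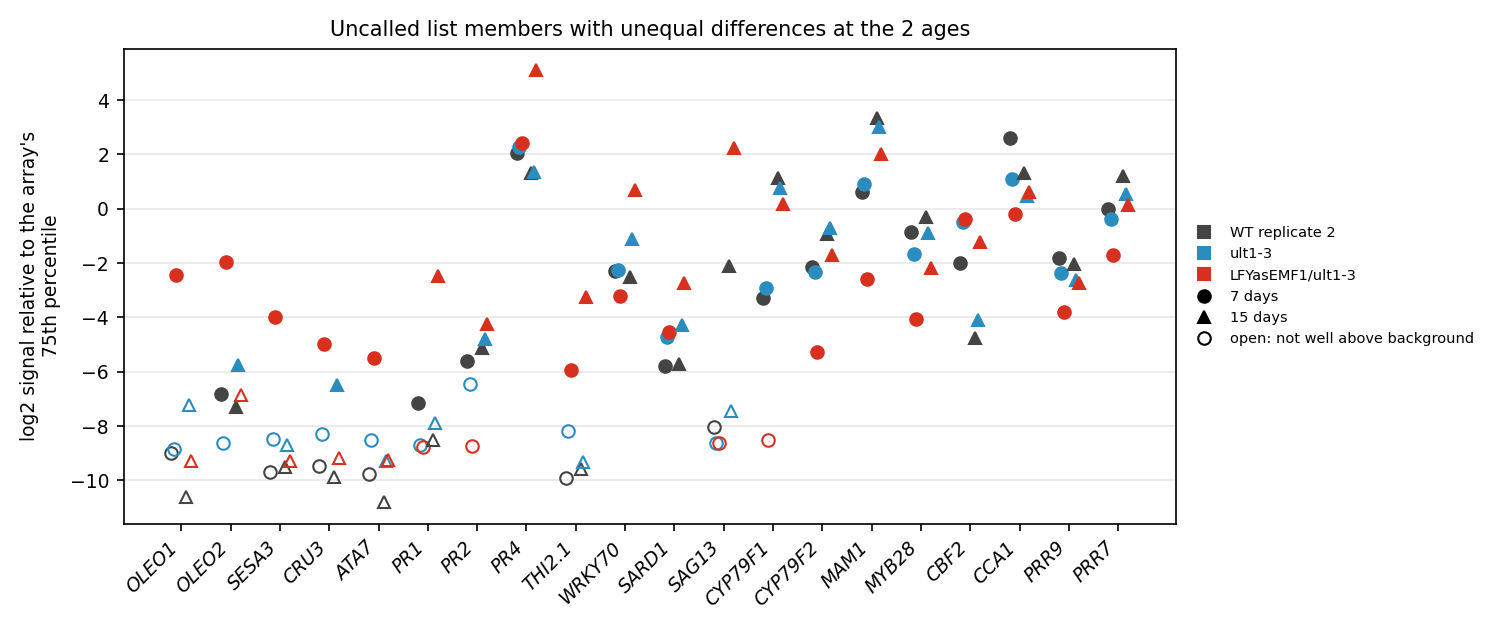
Log2 signal relative to the 75th percentile of the array (y axis) for 20 list members that were not called, with colours and symbols for genotype and age as in the key and open symbols for probes not well above background. The seed genes OLEO1, OLEO2, SESA3, CRU3 and the stamen gene ATA7 are high on the 7-day double mutant array (red circles), the defence genes PR1, PR4, WRKY70 and SAG13 on the 15-day array (red triangles), and the glucosinolate and clock genes are lowest at 7 days.

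Clock genes were mostly lower, 13 of 19, with a median of −0.46 and 0 called. In ult1-3 against WT their median was −0.37. The morning gene CCA1 stood at 2.59 and 1.31 in WT and at −0.20 and 0.62 in the double mutant (−1.74 ± 0.53, adjusted p = 0.139 by limma). PRR7, PRR9 and LNK2 had values of −1.37, −1.33 and −1.20. For CCA1, ult1-3 stood at 1.11 and 0.47, also below WT at both ages. WT replicate 1 stood at −5.24 and −2.17 for CCA1, far below replicate 2, and on all 10 arrays without slide the values turned to 1.09 for CCA1, 0.48 for LNK2 and 0.18 for PRR9. The clock values above thus describe slides 2 and 3.

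Flowering time genes went both ways, with 13 higher and 22 lower of 35 and 0 called. Their median was −0.68, and −0.38 in ult1-3 against WT. FLC, the repressor of flowering that Polycomb silences after cold, stood at −1.02 and −2.39 in WT and at 0.02 and 0.95 in the double mutant (2.19 ± 0.57, adjusted p = 0.118 by limma). AGL71 was at background in WT and at least 5.54-fold higher (adjusted p = 0.0594 by limma). SPL3, which promotes the change to the adult phase, was lower by a log2 change of −2.05 (adjusted p = 0.0673 by limma). FT differed by 0.76 and 0.91 at the 2 ages and SOC1 by −1.85 and −0.64.

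Of the 25 Polycomb and trithorax genes tested 20 were lower, with a median of −0.74, and ULT1 was the 1 called, against 0.55% of all genes. In ult1-3 against WT the list's median was −0.47. RING1B and PKL had values of −1.41 and −1.3, and FIE and MSI1 of 0.08 and 0.28. The meristem and KNOX list had a median of 0.14 over 20 genes with 0 called, and CLV3, the peptide signal of the stem cells, differed by 1.85 and 1.62 (adjusted p = 0.0594 by limma). Of the 11 heat shock genes HSP18.2 fell, from −3.72 and −3.94 in WT to −6.72 and −6.38 (−2.72 ± 0.27, adjusted p = 0.0452 by limma). It was the 1 called, against 0.55% of all genes. Under quantile normalization, in the authors' value table and on the 4 arrays of the comparison alone it did not pass. The heat shock list had a median of −0.44, and of −0.55 in ult1-3 against WT. On all 10 arrays without slide the median of the double mutant against WT turned to 1.40.

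The 27 genes of the photosystems and Rubisco were all higher, by a median of 0.31, but the sign of that median turned under quantile normalization (−0.07), in the authors' value table (−0.07) and under cyclic loess (−0.25). Among the 5588 brightest of all genes the median was 0.19 at 7 days and 0.29 at 15 days. No member was called. The remaining lists (cold, drought and abscisic acid; anthocyanin; auxin; gibberellin; senescence; iron uptake; root; cell cycle; carpel; stamen) held 0 calls, with medians from −0.24 to 0.67.

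**Figure D5:**
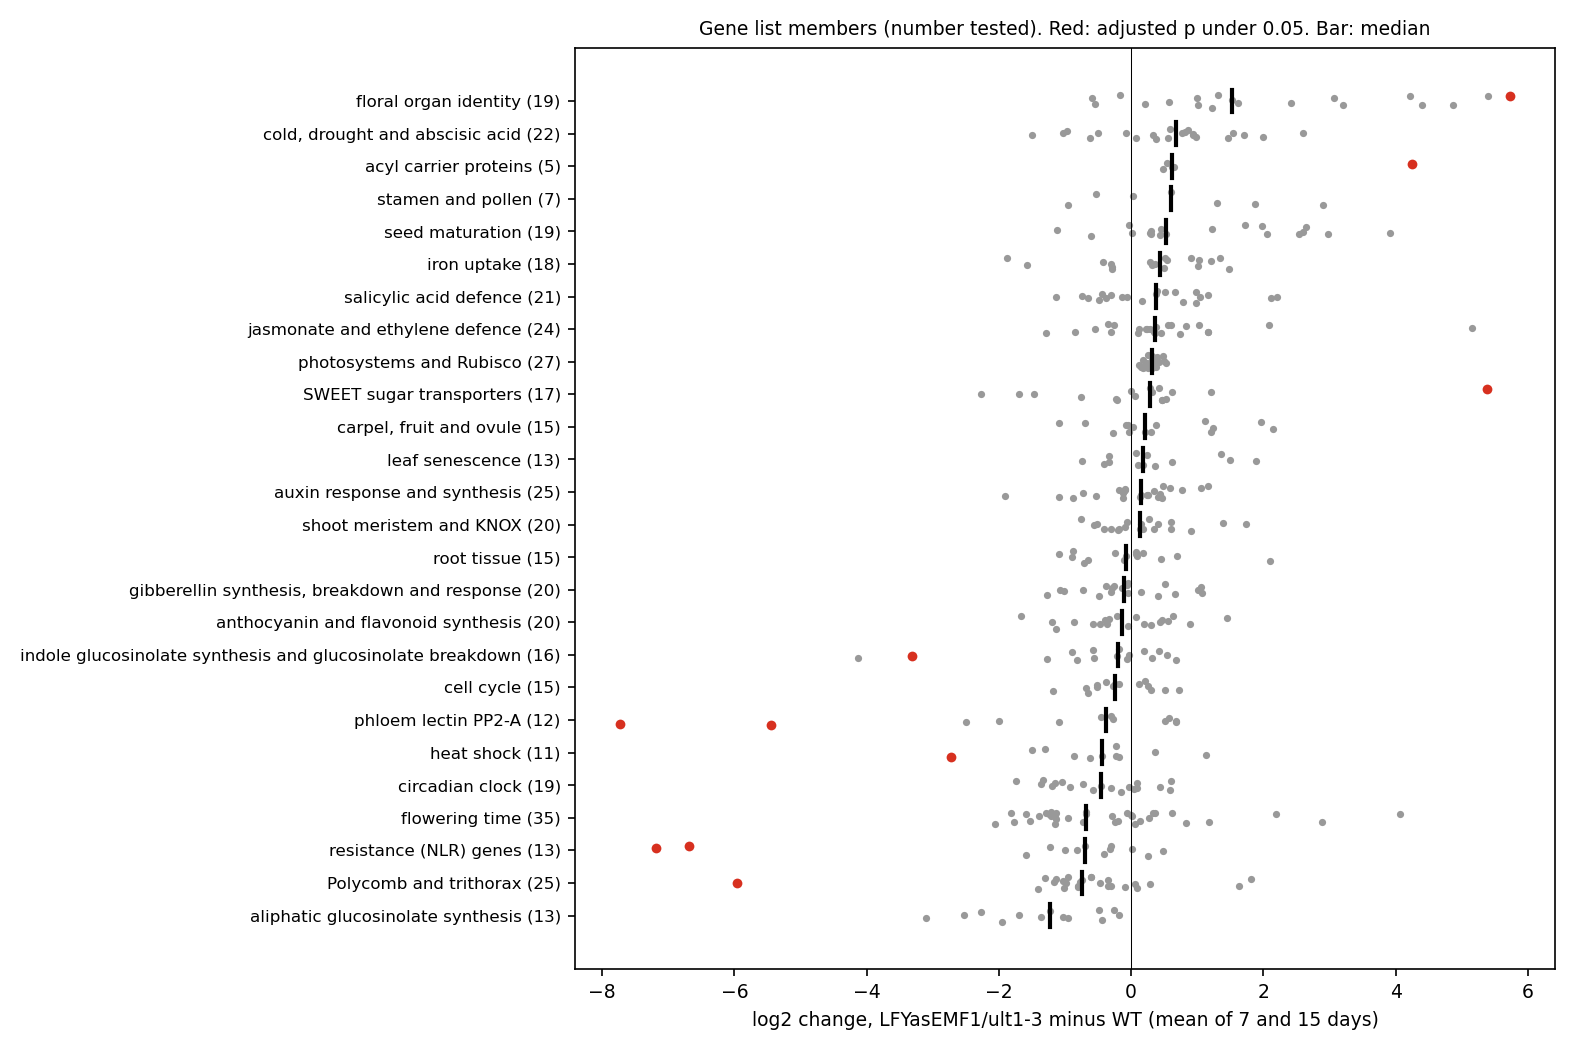
Log2 change of the double mutant against WT (x axis) for members of the 26 gene lists (y axis, with the number tested), where red points were called, grey points were not and the black bar is the list's median. The floral list has the highest median (1.52) and the aliphatic glucosinolate list the lowest (−1.23), and called members stand apart from the rest of the PP2-A, NLR, SWEET and acyl carrier protein lists. The lists were chosen with earlier results of these data known.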

How the data were processed

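Scans of the 10 arrays were read out by the authors in Agilent Feature Extraction (10.7.1.1), according to the submitters' processing notes. Per the file headers, the deposited processed signal is a linear intensity from which the software took background and a spatial trend, with no normalization between arrays. The authors' deposited value table is an intensity too. Its column medians are nearly equal, its scaling is not given in the sources used here, and it served as an alternative. Signals were divided by the 75th percentile of their array and log2-transformed. Probes were kept if well above background on at least 1 array and an outlier spot on none, and the brightest probe stood for each of 22353 genes. Names came from a RefSeq table of assembly TAIR10.1, with a locus for 34358 of 43603 probes, and no coordinates were used.

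Genotype and slide were fitted to the 6 arrays of slides 2 and 3 with limma 3.58.1 in R 4.3.3, with Benjamini-Hochberg adjustment over all genes (adjusted p under 0.05). Slide and age coincide, so a change is the mean of 2 within-slide differences. The method was tested on simulated data. Named genes were the 4 altered or related genes (ULT1, ULT2, EMF1 and LFY), the floral list, up to 15 called rises and falls with a symbol, called list members, up to 4 members with the largest change in lists with none, and the 2 largest rises and falls without a symbol. Other list members named were chosen after their values were seen. The lists (497 entries kept of 507) and these rules were chosen with earlier results of these data known. The mean spot signal was not in the tables, so the median was used in its place for normexp. The number of arrays limits the precision.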

Additional observations from a re-analysis of the deposited data

Results flagged for a closer look

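The genes below are those among the named genes whose difference from WT had opposite signs at the 2 ages, with 1 array of each genotype at each age, so the difference between ages was not tested in any of them. ULT2 differed by −0.089 at 7 days and 3.72 at 15 days, and cleared background in the double mutant at 15 days alone. The fruit gene SHP1 differed by −0.0044 and 2.46, and SEP4 by −0.59 and 0.25. In the defence and senescence lists PR1 differed by −1.63 and 6.05, WRKY70 by −0.89 and 3.22, PR2, a glucanase, by −3.13 and 0.86, and SAG13 by −0.58 and 4.34. CYCB2;4, a mitotic cyclin, differed by −1.57 and 0.19.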

How the results depend on the processing

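The fit pairs arrays by slide and age. With replicate numbers as the pairs, no paired analysis was possible because the double mutant arrays carry none. Calls against WT (52 up, 71 down) depended on the fit and on the filter. All 10 arrays with slide gave 120 and 207, normexp 286 and 321, a filter of 3 of 6 arrays 160 and 260, no filter 2061 and 697, and an intensity trend 233 and 235. Median scaling gave 140 rises, with the median of all genes at 0.26 and 81 falls, and a floor under dim signals 79 rises. Leaving out 1 array gave 0 to 675 rises and 0 to 1949 falls: 0 without either WT array, 54 and 48 without either ult1-3 array, 559 and 315 without the double mutant at 7 days, and 675 and 1949 without it at 15 days. The other settings gave 54 to 76 rises and 48 to 105 falls. Calls against ult1-3 (24 up, 45 down) numbered 0 and 0 on the 4 arrays alone and 5 and 17 with a floor, and 39 rises came with slide, 38 with median scaling and 37 with normexp. Leaving out 1 array gave 0 to 387 rises and 0 to 329 falls (0 without either WT array, 12 and 16 without ult1-3 at 7 days, 2 and 8 without it at 15 days, 387 and 153 without the double mutant at 7 days, 272 and 329 without it at 15 days). Fits with fewer arrays have fewer residual degrees of freedom. Their counts went both ways, down without a WT array and up without a double mutant array, and the cause was not tested.

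Of the 30 named genes called against WT, 13 passed in each setting that tested them other than the leave-outs (AGL98, MSP2 and AT4G04402 were not tested under the filter of 3 of 6 arrays). With a floor under dim signals, AGL98, CYP712A2, FBD1, MBD3, MES18, MSP2, PP2-A6, RGTA2 and SEP2 did not pass. On all 10 arrays without slide, AACT1, FBD1, M10, MES18, MIF2, RGTA2 and SWEET10 did not. On the 4 arrays of the comparison alone, ARAD2, HSP18.2, M10, MES18, MIF2 and SUV2 did not. Under quantile normalization and in the authors' value table, ARAD2 and HSP18.2 did not. With all 10 arrays and slide M10 and RGTA2 did not, and under normexp MES18 and RGTA2 did not. CTC1 did not pass with the mean of a gene's probes, nor MSP2 under cyclic loess. Without either ult1-3 array, ARAD2, HSP18.2, M10, MES18, MIF2 and SUV2 did not. Without either WT array, none of the 30 passed (adjusted p from 0.137 to 0.233 by limma). The list medians of the heat shock, salicylic acid, anthocyanin, indole glucosinolate, gibberellin, senescence, root and cell cycle genes changed sign under at least 1 scaling or array set. Among named genes that were not called, the sign turned on all 10 arrays without slide for CBF1 (−0.92), CCA1 (1.09), CRC (−0.28), JMT (0.58), LFY (−0.32), LNK2 (0.48), PRR9 (0.18), SEP4 (0.26) and WRKY53 (−0.89). It turned under normexp for GRP17 (−0.15), IND (−0.10), LFY (−0.0686) and SEP4 (0.12), and under cyclic loess for LHCB2.1 (−0.0100), PSAG (−0.064), PSAL (−0.15), PSBX (−0.10) and SEP4 (0.0086). SEP4 turned under median scaling (0.082), quantile normalization (0.052) and in the authors' table (0.054) too. Leaving out 1 array turned LFY (−0.37 to 0.79), PR1 (−1.09 to 5.503), PR2 (−2.84 to 0.57), SAG13 (−1.77 to 5.53), WRKY70 (−0.55 to 2.88), CYCB2;4 (−1.39 to 0.014), OLEO2 (−0.40 to 5.70) and SEP4 (−0.51 to 0.17). Cyclic loess was chosen after seeing the data.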

Other observations

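In the cold, drought and abscisic acid list, 15 of 22 genes were at least 2-fold higher in the double mutant at 7 days (7.82% of all genes), while at 15 days 5 were higher and 4 lower and the median was −0.08. CBF2, a regulator of cold acclimation, stood at −2.01 and −4.75 in WT and at −0.37 and −1.21 in the double mutant (2.59 ± 0.68, adjusted p = 0.12 by limma), and ult1-3 stood at −0.49 and −4.10. ZAT12, a stress-induced zinc finger gene, differed by 1.13 and 1.96. In the iron uptake list MYB10, a regulator of the response to iron shortage, differed by −1.72 and −2.03 (adjusted p = 0.0622 by limma), while LFYasEMF1 differed from its own WT by −2.90 and −4.57. NAS2, which makes the metal chelator nicotianamine, differed by −1.82 and −1.32, while F6'H1, which starts coumarin synthesis in roots, differed by 1.38 and 1.57.

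In the auxin list the synthesis gene YUC9 was at background in the double mutant and at least 1.89-fold lower, YUC6 was lower by a log2 change of −1.09, and GH3.5 and DFL1, which conjugate auxin to amino acids, were higher by 1.16 and 1.05. None passed (adjusted p from 0.0899 to 0.134 by limma). The carpel genes HEC2 and HEC3 were higher by 1.97 and 2.14, whereas the carpel gene CRC was at background on all 4 arrays. The pollen coat gene GRP17 was at background on all 4 arrays as well, and ATA7, an anther gene, was well above background on the 7-day double mutant array alone.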
